A study of Homo sapiens with 7 samples.

Results

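The 34 genes described here are ATF4, the transcription factor of the amino acid response, 22 genes that it or the neighbouring stress factors are known to control, and 11 genes of the endoplasmic reticulum, the compartment in which secreted and membrane proteins fold. They were taken by symbol from a list written with earlier results of these data known. All 34 were present among the 13142 genes of the deposited table, and all passed the filter that left 11154 genes for testing. The 4 tRNA synthetases of the list carry their older symbols (CARS, WARS, NARS and GARS) in the table. Sorted by what their products do, the genes fell into 7 roles, namely 5 transcription factors, 6 feedback regulators and stress effectors, 5 enzymes of serine, glycine and asparagine synthesis, 3 amino acid transporters, 4 tRNA synthetases, 8 endoplasmic reticulum chaperones and foldases, and 3 genes of endoplasmic reticulum-associated degradation. The first 5 roles hold 23 genes and are called the amino acid response genes below, and the last 2 hold the 11 endoplasmic reticulum genes. XBP1, which responds to unfolded protein in the endoplasmic reticulum, is counted among the 23 because it is a transcription factor.

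The series measured RNA by sequencing in BHT-101, a human cell line from an anaplastic thyroid carcinoma, grown in DMEM with serum and pyruvate. It compared 3 libraries of the unedited line (WT1, WT2 and WT3) with 4 knockout lines, called clones below, that carry premature stop codons in ASH1L, which encodes a histone methyltransferase. Both alleles stop after residue 413 in KO1, after residue 610 in KO2 and after residue 2129 in KO3, and the 2 alleles of KO4 stop after residues 2169 and 2174. Each clone thus carries a different edit and is represented by 1 library, and nothing in the labels says that the WT libraries came from separate cultures, so p-values cover only the spread between these libraries. Values are log2 RPKM, in which reads are set against gene length and library size, so that genes can be compared on 1 scale. The table holds no read totals, so the depth of each library is unknown. Bulk RNA cannot tell fewer cells of a kind from less RNA per cell.

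Amino acid shortage and a load of unfolded protein both lead to phosphorylation of the translation factor eIF2, which lowers protein synthesis in general and raises translation of ATF4. ATF4 then switches on genes for amino acid synthesis, amino acid import and tRNA charging, together with TRIB3 and PPP1R15A, which damp the response. Unfolded protein in the endoplasmic reticulum also activates ATF6 and, through IRE1, the spliced form of XBP1, and these factors raise chaperones such as HSPA5 (also called BiP) and the degradation machinery. RNA levels of ATF4 do not report its translation, and levels of XBP1 do not report its splicing.

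Both routes act through short DNA elements, so the stretches of promoter that hold them are shown here, before the values, to mark which of the genes carry which element. Promoters were those of RefSeq on GRCh38.p14, matched for 30 of the 34 genes, and the 250 bases before the start site were searched on both strands. The elements were the endoplasmic reticulum stress element, abbreviated ERSE (CCAAT, 9 bases of any kind, then CCACG), its variant ERSE-II (ATTGG, any base, then CCACG), the unfolded protein response element, abbreviated UPRE (TGACGTGG), and the ATF4 element of amino acid response genes, abbreviated CARE (TGATGNAA). Capitals mark the element, each run reads 5′ to 3′ on the gene's own strand, and an element found on the opposite strand therefore appears as its reverse complement.
HSPA5 ERSE, chr9:125241371-125241429, minus strand: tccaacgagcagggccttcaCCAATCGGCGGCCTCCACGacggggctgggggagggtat
XBP1 ERSE, chr22:28800598-28800626, minus strand: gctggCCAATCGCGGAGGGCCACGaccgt
CALR ERSE on the opposite strand, chr19:12938364-12938422, plus strand: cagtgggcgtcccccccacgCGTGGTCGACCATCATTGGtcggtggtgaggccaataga
SDF2L1 ERSE-II on the opposite strand, chr22:21642094-21642144, plus strand: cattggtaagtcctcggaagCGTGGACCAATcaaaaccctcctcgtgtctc
HYOU1 UPRE and, overlapping it on the opposite strand, ERSE-II, chr11:119057360-119057413, minus strand: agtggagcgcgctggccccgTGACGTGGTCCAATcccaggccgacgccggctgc
HERPUD1 ERSE-II, chr16:56932016-56932044, plus strand: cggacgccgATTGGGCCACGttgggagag
HERPUD1 CARE on the opposite strand, chr16:56931946-56931993, plus strand: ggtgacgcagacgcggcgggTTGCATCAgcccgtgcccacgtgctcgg
ASNS CARE, chr7:97872458-97872487, minus strand: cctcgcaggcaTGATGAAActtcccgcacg
ATF3 CARE, chr1:212565196-212565243, plus strand: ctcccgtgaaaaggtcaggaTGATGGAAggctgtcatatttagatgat
An ERSE or ERSE-II was present in 8 of the 30 matched genes, against 44 of all 35116 promoters (0.125%). These 8 were HSPA5, HSP90B1, CALR, PDIA6, SDF2L1, HYOU1, HERPUD1 and XBP1, so that 6 of the 8 chaperones and foldases had one. The CARE letters were present in ASNS, CHAC1, ATF3 and HERPUD1, and in 3.14% of all promoters. UPRE was present in HYOU1 and in 0.612% of all promoters. Members were counted by gene, with 44 promoters for the 30 matched genes, whereas the shares are of single promoters. These matches describe the letters in the window and are no measure of binding.

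Across the 4 clones and 3 WT libraries, the amino acid response genes were mostly lower in the clones on average, and the size of that difference depended on which WT library was taken as the reference. The endoplasmic reticulum genes did something else: they differed less among the 3 WT libraries, were mostly lower in KO1, KO2 and KO4, and were 2 to 4 times higher in KO3 for most chaperones. The heat map of all 34 genes shows both patterns.

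**Figure D1:**
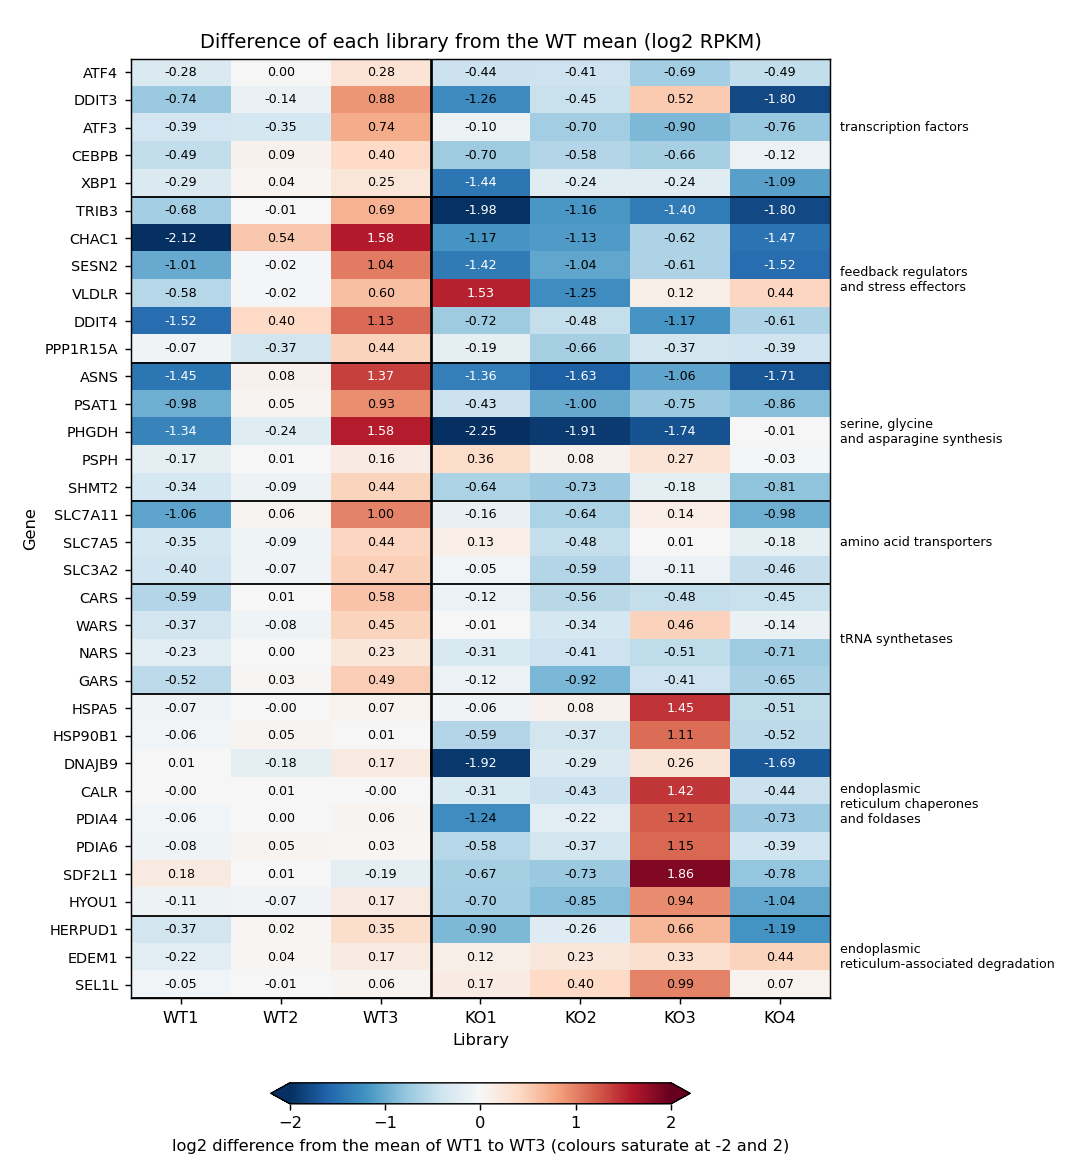
Difference of each library (columns) from the mean of the 3 WT libraries for each of the 34 genes (rows, grouped by role), in log2 RPKM units, with blue below and red above the WT mean. In the upper 5 roles WT1 is blue and WT3 red in most rows, and among the chaperones the KO3 column is red, at 1.86 for SDF2L1, 1.45 for HSPA5 and 1.42 for CALR.

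With the clones pooled, 28 of the 34 genes had a negative log2 difference, where 53% of all tested genes did, and their median was -0.42 against -0.02 for all tested genes. No member passed an adjusted p of 0.05 in limma. At an unadjusted p under 0.05, 6 were lower, namely TRIB3, ATF4, NARS, SHMT2, SESN2 and ASNS, where 8.59% of all tested genes were lower at that level. Over all genes 46 of 11154 (0.412%) were called. Among the 23 amino acid response genes 21 were negative. Of 24 other known ATF4 targets outside the list that were tested, 21 were negative as well, with a median of -0.51 and none called. Against WT1 alone, 12 of these 24 were lower in the mean of the clones, and their median was 0.0085.

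ATF4 itself, on chromosome 22 (39519695 to 39522685, GRCh38), stood at 7.36, 7.64 and 7.92 log2 RPKM in WT1, WT2 and WT3 and at 7.21, 7.23, 6.96 and 7.15 in KO1 to KO4. Every clone lay below every WT library. The group difference was -0.51 ± 0.15 (limma SE, adjusted p = 0.184), or 1.42-fold lower. Permuting the group labels over all 35 ways to split 7 libraries gave an exact two-sided p = 0.0286, the smallest value that this design allows. That value is not adjusted for the number of genes, and 1129 of the tested genes (10.1%) had all 4 clones below all 3 WT libraries. The gap from KO2 to WT1 was small beside the range of the WT libraries, and when any library was left out no split could reach 0.05.

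Of the other transcription factors, XBP1 encodes the factor that IRE1 activates by splicing. Its level was 5.43, 5.76 and 5.97 in the WT libraries and 4.28, 5.48, 5.48 and 4.63 in KO1 to KO4. KO1 and KO4 lay well below the WT range, whereas KO2 and KO3 lay within it. Against the 3 WT libraries XBP1 was called in KO1 (-1.44, adjusted p = 0.00178) and KO4 (-1.09, adjusted p = 0.0104), and the pooled difference was -0.75 ± 0.32 (adjusted p = 0.318). DDIT3, the pro-apoptotic factor also called CHOP, ranged from 4.95 to 6.57 in WT and from 3.89 in KO4 to 6.21 in KO3, with overlapping groups (-0.75 ± 0.59, adjusted p = 0.563). ATF3, a stress-induced repressor and activator of the same family as ATF4, was at 2.46, 2.50 and 3.59 in WT and at 2.75, 2.15, 1.95 and 2.09 in the clones. CEBPB, a partner of ATF4 in dimers, was at 3.93, 4.50 and 4.81 in WT and at 3.71, 3.83, 3.76 and 4.29 in KO1 to KO4. Both sets of levels overlapped between the groups, and the pooled differences were -0.62 ± 0.32 for ATF3 (adjusted p = 0.389) and -0.52 ± 0.24 for CEBPB (adjusted p = 0.341).

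TRIB3, a pseudokinase that binds ATF4 and holds its activity down, had the smallest p-value of the 34 genes. Its level was 5.86, 6.53 and 7.24 in WT1 to WT3 and 4.57, 5.38, 5.14 and 4.74 in KO1 to KO4. The clones were all below the WT libraries, with 0.48 units between the highest clone and WT1. The difference was -1.59 ± 0.33, 3.00-fold lower, with an adjusted p of 0.0991. By clone, TRIB3 was called in KO1 (-1.98, adjusted p = 0.0137) and KO4 (-1.80, adjusted p = 0.0320), and not in KO2 (-1.16, adjusted p = 0.0913) or KO3 (-1.40, adjusted p = 0.0537). Besides ATF4 and TRIB3, NARS, the asparaginyl-tRNA synthetase, was the only member with all clones under all WT libraries, and SEL1L of the degradation machinery was the only one with all clones above, as 8.88% of all tested genes were.

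The other effectors spread widely among the WT libraries. SESN2, a stress-induced inhibitor of mTORC1 signalling, was at 3.12, 4.11 and 5.17 in WT and at 2.71, 3.09, 3.52 and 2.61 in KO1 to KO4. WT1 lay among the clones, and the pooled difference was -1.15 ± 0.46 (adjusted p = 0.285). CHAC1, which breaks down glutathione, was at 0.42, 3.09 and 4.12 in WT and at 1.37, 1.42, 1.93 and 1.08 in KO1 to KO4, so that WT1 was below all 4 clones and WT2 and WT3 above them. DDIT4, an mTORC1 inhibitor also called REDD1, was at 4.57, 6.49 and 7.22 in WT and at 5.38, 5.61, 4.92 and 5.48 in the clones, again with WT1 alone below them. PPP1R15A, the phosphatase subunit that removes the phosphate from eIF2, varied less, at 5.01, 4.71 and 5.52 in WT and 4.89, 4.42, 4.71 and 4.69 in KO1 to KO4 (-0.40 ± 0.20, adjusted p = 0.382). VLDLR, the very low density lipoprotein receptor, differed in both directions between clones, at 2.30, -0.48, 0.88 and 1.20 in KO1 to KO4 against 0.19, 0.74 and 1.36 in WT. It was called higher in KO1 (1.53), and lost that call in KO1 when the median of its neighbours within 5 Mb, itself 0.71 above WT in KO1, was taken off (0.80). In KO2 the opposite held. VLDLR was not called there at -1.25, and was called lower at -1.72 with its neighbours taken off.

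**Figure D2:**
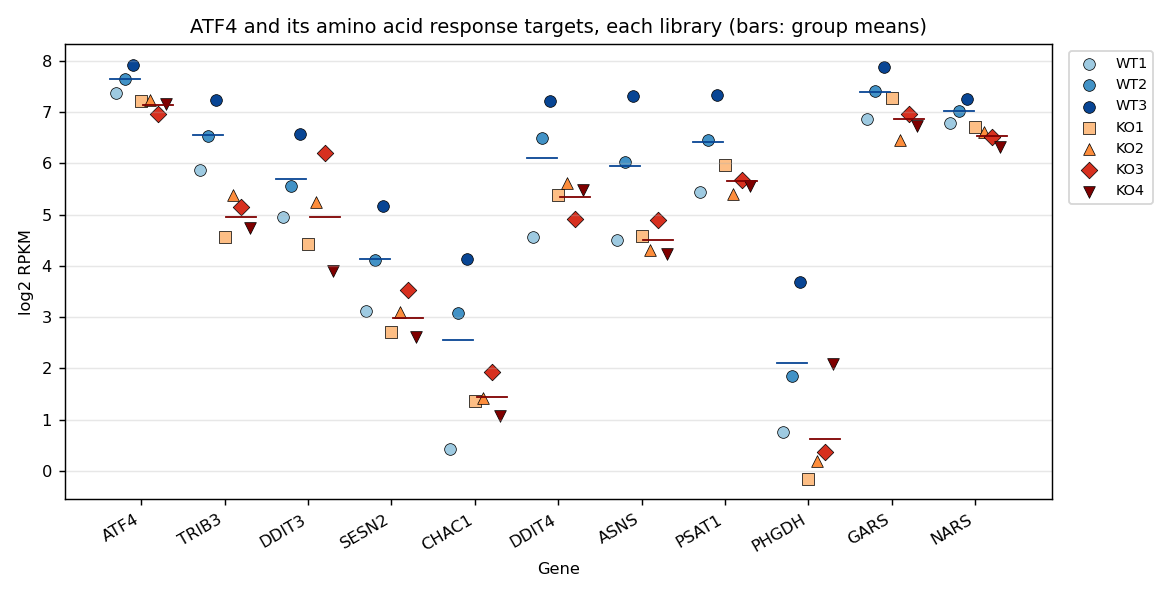
Level (log2 RPKM) of ATF4 and 10 amino acid response genes in each library, with WT circles in 3 shades of blue, the clones in orange to dark red, and short bars at the group means. In ASNS the WT libraries span 4.50 to 7.31 while the clones lie between 4.23 and 4.89, around the lowest WT library.

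Among the biosynthetic enzymes, ASNS, which makes asparagine and is a standard readout of ATF4, stood at 4.50, 6.02 and 7.31 in WT1, WT2 and WT3. In KO1 to KO4 it stood at 4.58, 4.31, 4.89 and 4.23. The clones thus sat around WT1 and below WT2 and WT3, and the pooled difference of -1.44 ± 0.58 (2.72-fold lower, adjusted p = 0.288) shrank to 0.00 when WT1 alone was the reference. PHGDH, the first enzyme of serine synthesis, was at 0.76, 1.86 and 3.68 in WT and at -0.15, 0.19, 0.36 and 2.09 in KO1 to KO4, with KO4 inside the WT range (-1.48 ± 0.76, adjusted p = 0.390). SHMT2, which passes a one-carbon unit from serine in mitochondria, was at 6.05, 6.30 and 6.83 in WT and at 5.76, 5.67, 6.21 and 5.58 in the clones (-0.59 ± 0.22, adjusted p = 0.272). PSAT1, the second enzyme of serine synthesis, spanned 5.43 to 7.34 in WT and 5.41 to 5.98 in the clones. PSPH, the last enzyme of that pathway, was the exception of the group, at 3.84, 4.03 and 4.17 in WT and 4.37, 4.09, 4.28 and 3.98 in the clones (0.17 ± 0.14, adjusted p = 0.574).

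The 3 transporters differed little between the groups. SLC7A11, the cystine importer, was at 1.83, 2.95 and 3.89 in WT and at 2.73, 2.25, 3.02 and 1.91 in the clones. SLC7A5, the large neutral amino acid transporter, was at 7.29, 7.55 and 8.08 in WT and at 7.77, 7.16, 7.65 and 7.46 in the clones. In both genes the clones lay inside the WT range except SLC7A5 in KO2, and the pooled differences were -0.41 ± 0.48 for SLC7A11 (adjusted p = 0.701) and -0.13 ± 0.22 for SLC7A5 (adjusted p = 0.803). SLC3A2, the heavy chain shared by both, spanned 5.93 to 6.79 in WT and 5.74 to 6.27 in the clones. For SLC7A11 and SLC7A5 the direction turned without WT3, to 0.09 in each.

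Of the tRNA synthetases, NARS was at 6.79, 7.02 and 7.25 in WT and at 6.71, 6.60, 6.50 and 6.31 in KO1 to KO4. The clones were all below WT, by 0.08 units at the closest (-0.49 ± 0.15, adjusted p = 0.190). GARS, for glycine, was at 6.86, 7.41 and 7.87 in WT and at 7.26, 6.46, 6.97 and 6.73 in the clones (-0.53 ± 0.27, adjusted p = 0.389). WARS, for tryptophan, was at 4.98, 5.27 and 5.80 in WT and at 5.34, 5.01, 5.81 and 5.22 in the clones, with a difference of -0.01 ± 0.25 (adjusted p = 0.990). CARS, for cysteine, spanned 2.73 to 3.89 in WT and 2.76 to 3.20 in the clones. The 16 cytosolic synthetases outside the list had a median difference of -0.19 with 13 negative and none called, among them MARS at -0.47 ± 0.22, EPRS at -0.54 and TARS at -0.42. NARS has copies named as pseudogenes in the annotation, as have 9 more of the 34 genes, ATF4, ASNS and PSAT1 among them, and the sources used here do not say how the counting treated reads shared with such copies.

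The spread among the WT libraries was itself concentrated in these genes, which were chosen with earlier results of these data known. In 28 of the 34, WT1 was the lowest and WT3 the highest of the 3 WT libraries, where 23.3% of all tested genes had that order. WT3 exceeded WT1 by more than 1 log2 unit in 13 of the 34, where 80 of all tested genes (0.717%) did. All 13 were amino acid response genes and none was an endoplasmic reticulum gene. The differences were 3.71 for CHAC1 (13.0-fold), 2.91 for PHGDH, 2.81 for ASNS (7.02-fold), 2.65 for DDIT4, 2.05 for SLC7A11 and SESN2, and 1.38 for TRIB3. ATF4 RNA differed by 0.56 (1.48-fold). Of the 24 other ATF4 targets, 22 had the same order and 12 exceeded 1 unit, among them SLC6A9, a glycine transporter, and NUPR1, a stress-induced chromatin protein. The 34 genes and these 24 targets together supplied 25 of the 80 genes, which is 31.2% of those 80 and 43.1% of the 58. Over all tested genes the WT libraries were alike, with correlations of 0.988 to 0.995 across genes, and the median of WT3 minus WT1 was 0.00.

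Against WT1 alone, the mean of the clones was lower in 18 of the 34 genes, where 52.8% of all tested genes were lower, and the median was -0.01. TRIB3 was 0.90 lower on that scale and XBP1 0.47 lower, while CHAC1 was 1.03 higher, DDIT4 0.78 higher and SLC7A11 0.65 higher. With 1 reference library these are values without a test. What set the WT libraries apart was not tested, and the labels give no batch, date or passage. Leaving out WT1 moved the median of the 34 pooled differences to -0.63, and leaving out WT3 moved it to -0.23.

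**Figure D3:**
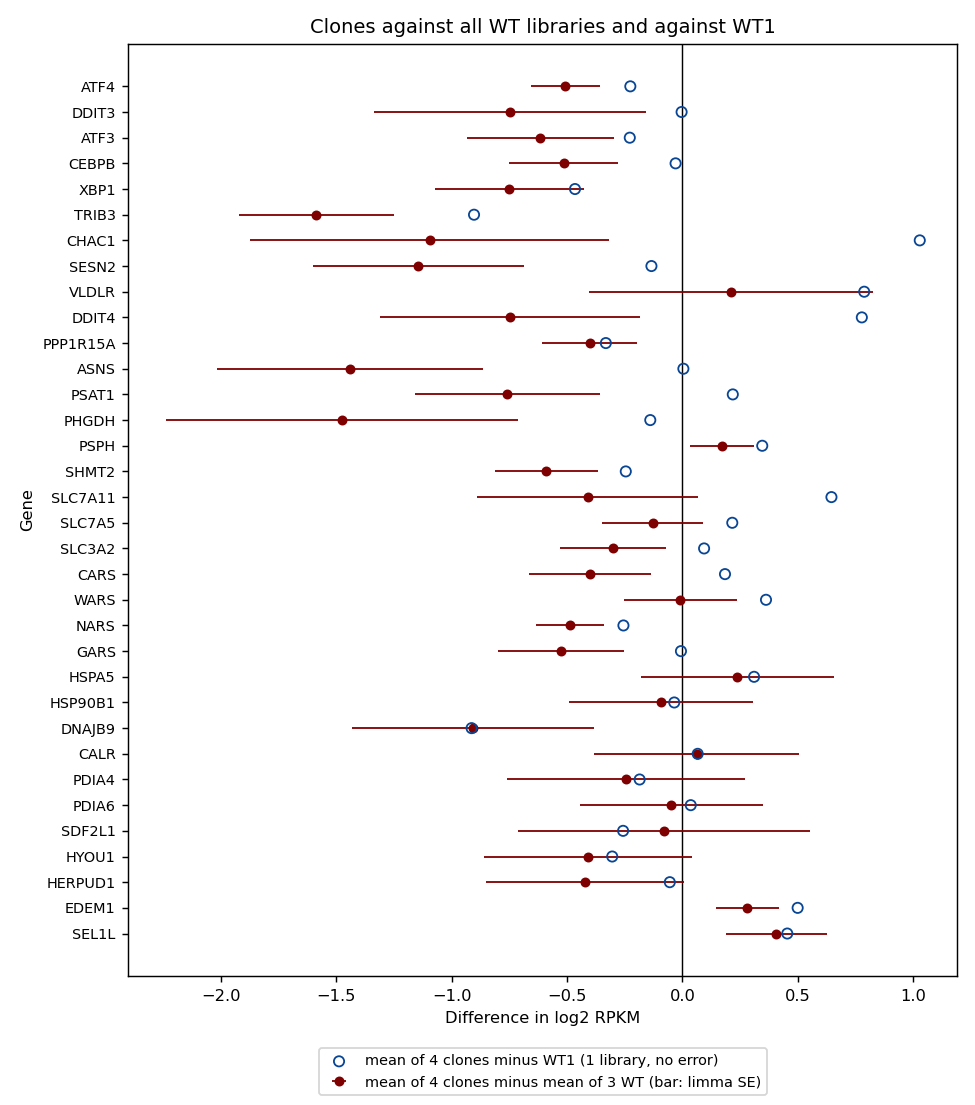
Difference in log2 RPKM for each of the 34 genes between the mean of the 4 clones and the mean of the 3 WT libraries (filled, with limma SE) or WT1 alone (open, no error). For ASNS the filled point lies at -1.44 and the open point at 0.00, and for TRIB3 they lie at -1.59 and -0.90.

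The endoplasmic reticulum chaperones and foldases varied little in WT and divided the clones. Their pooled difference was near 0 (median -0.09, none called), because KO3 lay above WT and the other clones below. Set against the 3 WT libraries with the spread taken from those libraries, 7 of the 8 were called higher in KO3, where 14.2% of all tested genes were called higher, and none was called lower. KO1 had 7 of the 8 called lower, KO2 had 5 and KO4 had 8, where 24.9%, 18% and 14.4% of all tested genes were called lower. With the median difference of the neighbours within 5 Mb taken off each gene, these counts fell to 5 in KO1, 1 (SDF2L1) in KO2 and 5 in KO4, and all 8 were called higher in KO3. HSP90B1, PDIA6 and HYOU1 then had no call in KO1, KO2 or KO4, and CALR had none in KO2. Shares over all tested genes are not given for that setting. With 1 library a clone, these tests assume that a clone varies as the WT libraries do, and the shares called over all genes are large (44.1%, 33.5%, 34.1% and 24.8% for KO1 to KO4). The 4 comparisons share their WT libraries and are not independent of each other. The members given gene by gene here include several chosen after their values were seen. In 5 of them, HSP90B1, CALR, PDIA6, SDF2L1 and HYOU1, KO3 stood apart from the other 3 clones by a gap that Dixon's criterion marks, as 1 clone did in 5.68% of all tested genes.

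HSPA5, the main chaperone of the endoplasmic reticulum and the brake on its stress sensors, was at 8.41, 8.48 and 8.55 in WT1 to WT3 and at 8.41, 8.56, 9.93 and 7.96 in KO1 to KO4. KO3 lay 1.45 ± 0.11 above the WT mean (2.73-fold, adjusted p = 0.000328), KO4 lay 0.51 below it (adjusted p = 0.0169), and KO1 and KO2 were not called. With its neighbours on chromosome 9 taken off, HSPA5 was called lower in KO1 (-0.52, adjusted p = 0.0129) and was at -0.78 in KO4 (adjusted p = 0.00513). HSP90B1, the HSP90 of this compartment, also called GRP94, was at 8.98, 9.09 and 9.05 in WT and at 8.45, 8.67, 10.15 and 8.52 in the clones. CALR, the lectin chaperone calreticulin, was at 8.65, 8.66 and 8.66 in WT and at 8.35, 8.23, 10.08 and 8.22 in the clones. In both genes KO3 was above and the other 3 clones were below all WT libraries, and the KO3 differences were 1.11 ± 0.10 for HSP90B1 (2.16-fold, adjusted p = 0.000742) and 1.42 ± 0.10 for CALR (2.68-fold, adjusted p = 0.000236).

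Of the members, the disulfide isomerases PDIA4 and PDIA6 followed the same course. PDIA4 was at 8.23, 8.29 and 8.35 in WT and at 7.05, 8.07, 9.50 and 7.56 in KO1 to KO4, and PDIA6 was at 7.42, 7.56 and 7.54 in WT and at 6.93, 7.13, 8.66 and 7.11 in the clones. KO3 was 2.31-fold above WT in PDIA4 (adjusted p = 0.000508) and 2.22-fold above in PDIA6 (adjusted p = 0.000639). KO1 was 2.36-fold below WT in PDIA4, though the median of its neighbours on chromosome 7 was 0.54 below WT in that clone, and 0.71 of the 1.24 units remained once that median was taken off (adjusted p = 0.00308).

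SDF2L1, a partner of HSPA5 cofactors, showed the widest gap. It was at 4.80, 4.64 and 4.43 in WT and at 3.96, 3.89, 6.48 and 3.85 in KO1 to KO4. KO3 was 3.63-fold above the WT mean (1.86 ± 0.15, adjusted p = 0.000469), and the other 3 clones were below every WT library. HYOU1, a large HSP70-like chaperone that exchanges nucleotide on HSPA5, was at 4.68, 4.72 and 4.97 in WT and at 4.09, 3.94, 5.73 and 3.75 in the clones. It lies on chromosome 11, where its neighbours within 5 Mb were lower than WT in all clones by medians of 0.54 to 0.73, and with these taken off HYOU1 was not called in KO1, KO2 or KO4 and was 1.48 above WT in KO3 (adjusted p = 0.000953). DNAJB9, the HSPA5 cofactor also called ERdj4 that holds IRE1 inactive, was at 3.50, 3.32 and 3.67 in WT and at 1.57, 3.21, 3.76 and 1.80 in the clones. It was lower in KO1 (-1.92, adjusted p = 0.000166) and KO4 (-1.69, adjusted p = 0.000807) and not called in KO3 (0.26 ± 0.15, adjusted p = 0.215). Its neighbours on chromosome 7 had medians of -0.76 in KO1 and -0.33 in KO3 and KO4, and with these taken off DNAJB9 was at -1.15 in KO1 (adjusted p = 0.00308) and at 0.60 in KO3, where it was then called (adjusted p = 0.0393). XBP1 RNA was also called lower in KO1 and KO4.

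**Figure D4:**
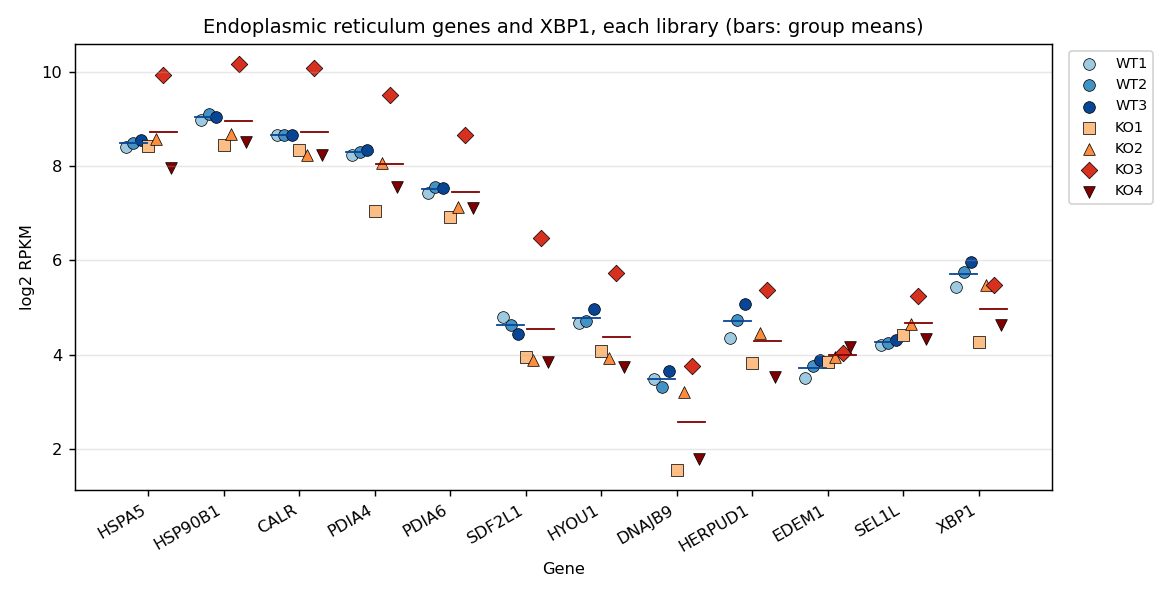
Level (log2 RPKM) of the 11 endoplasmic reticulum genes and XBP1 in each library, with WT circles in 3 shades of blue, the clones in orange to dark red, and short bars at the group means. The red diamonds of KO3 lie above the tightly grouped WT circles for the chaperones (9.93 against 8.41 to 8.55 for HSPA5), and XBP1 in KO3 lies within the WT range.

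The 3 degradation genes were more varied. HERPUD1, a membrane protein that gathers the ubiquitin ligase complex, was at 4.35, 4.74 and 5.07 in WT and at 3.82, 4.46, 5.38 and 3.53 in KO1 to KO4, so that KO3 was the highest and KO4 the lowest of the 7 libraries. It was called lower in KO1 (-0.90, adjusted p = 0.0271) and KO4 (-1.19, adjusted p = 0.0178), and its difference in KO3 was 0.66 ± 0.25 (adjusted p = 0.0843), which passed the threshold without WT1 or without WT3. SEL1L, the scaffold of the ligase HRD1, was at 4.22, 4.25 and 4.32 in WT and at 4.43, 4.66, 5.26 and 4.34 in the clones. It was called higher in KO2 (0.40, adjusted p = 0.0246) and KO3 (0.99 ± 0.10, adjusted p = 0.000974), with no difference called in the pooled comparison (0.41 ± 0.22, adjusted p = 0.403). The call in KO2 was lost when the median of its neighbours was taken off (0.22, adjusted p = 0.118). EDEM1, which marks misfolded glycoproteins, was at 3.50, 3.77 and 3.90 in WT and at 3.85, 3.95, 4.05 and 4.17 in the clones (0.28 ± 0.14, adjusted p = 0.359).

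Counted over all 34 genes, 8 were called higher and 1 lower in KO3, the 1 being ATF4 (-0.69, adjusted p = 0.0412), which lost its call after quantile normalization, with library medians set equal, without the variance trend and without WT2. Of all tested genes 14.2% were called higher and 19.9% lower there. The 8 were 7 chaperones and SEL1L, and KO3 was the highest of the 7 libraries in 11 of the 34, where 19.7% of all tested genes had KO3 highest. KO1 had 10 called lower and 1, VLDLR, higher, where 24.9% of all tested genes were lower and 19.2% higher. KO2 had 5 lower and 1, SEL1L, higher, where 18% were lower and 15.5% higher, so its count lower was no larger than over all genes. KO4 had 12 lower and none higher, where 14.4% were lower and 10.4% higher. These counts moved with the WT libraries, from which the spread in these tests is taken. Shares over all tested genes are not given for the settings that follow. The counts there show how far the calls moved and are not results about the members. Without WT1 the calls lower became 20, 28, 14 and 25 for KO1 to KO4. Without WT2 they became 8, 1, 0 and 4, and without WT3 they became 13, 11, 4 and 15. The calls higher in KO3 stayed at 8 to 13 across those settings, and were 10 after the position of the genes was taken into account.

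Of the 8 genes whose promoter window held an ERSE or ERSE-II, 6 were called higher in KO3, and XBP1 and HERPUD1 were not. Of all tested genes 14.2% were called higher and 19.9% lower there. These 6 are among the chaperones already counted as called higher in KO3, so their count is no separate result. PDIA4 and SEL1L were called higher without these letters in the window. Genes of related pathways outside the 34 were counted in KO3 as well, with no median of neighbouring genes taken off. Of 19 other endoplasmic reticulum chaperones and foldases, 12 were called higher and 2 lower in KO3, with a median of 0.61 against -0.02 for all tested genes. CRELD2, a secreted product of the unfolded protein response, was at 3.35, 3.30 and 3.34 in WT and at 2.78, 3.69, 6.25 and 2.86 in the clones, and was chosen for its size after its values were seen. Of 16 other degradation genes 6 were called higher and 1 lower, and of 16 translocon and signal peptide genes 2 were called higher and 2 lower, the latter close to the shares over all genes. Of 8 sensors and proteases none was called higher and 1, MBTPS2, lower, and of 15 genes for eIF2, its kinases and its exchange factor 1 was higher and 2 lower. ERN1, which encodes IRE1, was at 1.51, 1.88 and 2.41 in WT and at 0.50, 1.61, 1.86 and 0.85 in KO1 to KO4, lowest in the clones with the lowest XBP1 and DNAJB9.

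**Figure D5:**
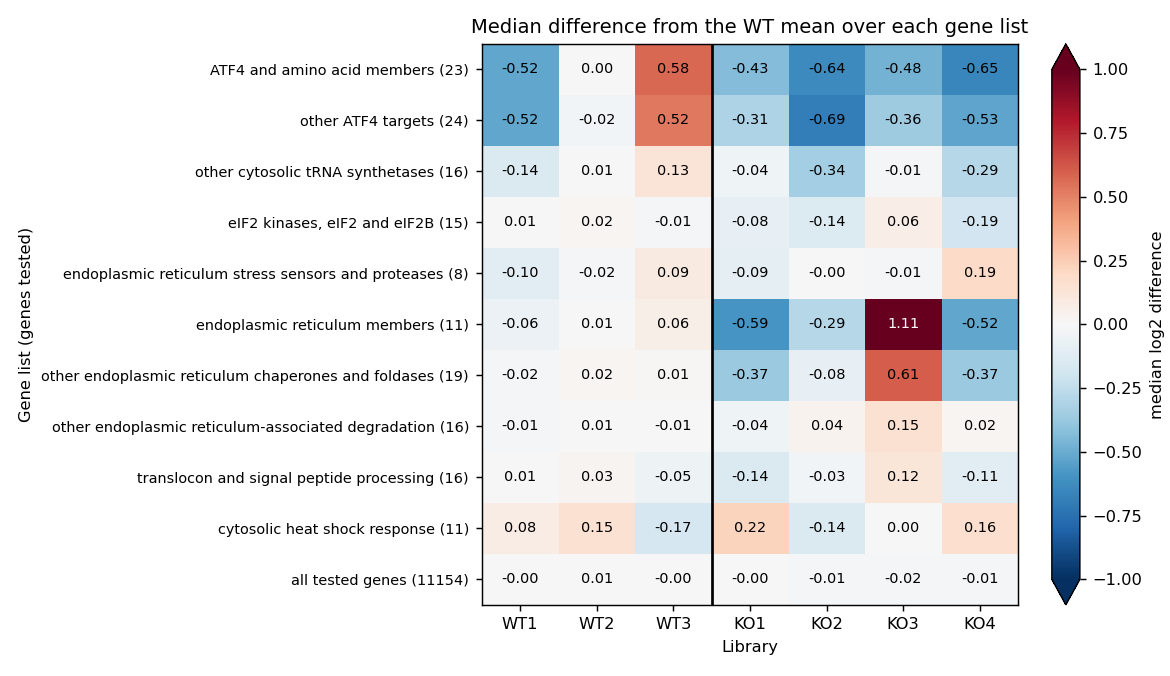
Median log2 difference from the WT mean over each gene list (rows, with the number of genes tested) in each library (columns). The amino acid response genes run from -0.52 in WT1 to 0.58 in WT3 and lie between -0.43 and -0.65 in the clones, while the endoplasmic reticulum genes lie near 0 in WT, at 1.11 in KO3 and at -0.29 to -0.59 in the other clones.

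Between the clones with late stops (KO3 and KO4) and those with early stops (KO1 and KO2), no gene of the 11154 was called (0%) in limma, the 34 included. The median difference of the 34 was 0.17, and the chaperones had a median of 0.82 with all 8 positive. Without KO3 the median of the 34 turned to -0.14, and without KO4 it was 0.47. KO3 and KO4, whose stops lie close together, were on opposite sides of WT in HSPA5, HSP90B1, CALR, PDIA4, PDIA6, SDF2L1, HYOU1 and HERPUD1.

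ASH1L RNA, at 3.34, 3.30 and 3.22 in WT, was 2.69, 2.54 and 2.42 in KO1 to KO3 and 3.74 in KO4, and since a stop codon need not lower RNA this checks the edits only in part. Of 13 thyroid and epithelial markers 7 had values. The keratins KRT8, KRT18 and KRT19 were above 5 log2 RPKM and the thyroid factor PAX8 under 1 RPKM in every library. The keratins still differed between clones. Set against the WT mean, KRT8 was at -1.56, 0.22, -1.36 and -0.51 in KO1 to KO4, and called lower in all but KO2. KRT19 was at -1.18, 0.35, -1.62 and -0.12, and called lower in KO1 and KO3. KRT18 was called lower in every clone. CDH1, EPCAM and HHEX also differed between clones. CDH1 was at 0.75, 0.78 and 0.48 in WT and at -5.86, 1.96, -2.20 and -2.83 in KO1 to KO4. EPCAM was at 2.95, 3.04 and 2.85 in WT and at 1.71, 3.88, 3.19 and 1.85 in the clones. HHEX was at 0.85, 1.21 and 0.78 in WT and at 1.89, 2.50, 0.50 and 0.77 in the clones. TG, TSHR, SLC5A5, NKX2-1 and FOXE1 were not analysed here. The summed level of the 7 was 489 to 585 RPKM in WT and 237, 582, 253 and 409 RPKM in KO1 to KO4. The 4 fibroblast and endothelial markers with values, of 10, summed to 51.4 to 55.4 RPKM in WT and to 20.4, 32.4, 70.2 and 34.8 RPKM in the clones, highest in KO3, where COL1A1 and LUM were called higher and PDGFRA lower, with PECAM1 under 1 RPKM in every library. The 3 leukocyte markers with values, of 10, summed to 9.64 to 12.3 RPKM in WT and to 0.675 to 3.18 RPKM in the clones, most of it CD3D in WT. The part of these differences in the KO3 pattern was not tested.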

How the data were processed

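RNA from 7 libraries was sequenced from TruSeq libraries, per the labels' protocols. The submitters' processing notes name Trim Galore 0.4.1, STAR 2.5.3a, HTSeq 0.11.2, edgeR and hg38. The authors deposited 1 table of log2 RPKM; no source used here gives the offset added before the log. Values equal to a gene's lowest in 2 or more libraries, which would show the worth of a read, occurred in 7 genes, too few to recover counts.

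Genes with log2 RPKM above 0 in at least 3 libraries were tested with limma 3.58.1 (R 4.3.3; variance trend, Benjamini-Hochberg adjustment, threshold 0.05), with no added scaling or pseudocount. Each clone was fitted against WT in a model of 5 groups. Adjusted p-values are from limma. The fits were run on simulated data, where the late-stop against early-stop fit called unchanged genes far more often than the other fits. For the single-clone fit the simulated clones were given the WT spread. That run therefore cannot show false calls that arise where clones vary more than the WT libraries.

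The members, lists and tests were chosen with earlier results of these data known. Values were given for ATF4, called members, the 12 members of smallest p, the extremes of each role and up to 3 genes of each other list by p; promoters were shown for members among these that hold an element, with CALR, SDF2L1 and HYOU1 added after their values were seen. Neighbours within 5 Mb (at least 10) were placed by GENCODE release 29 for 95.2% of genes. No source used here gives the strand setting of the counting, so reads of overlapping genes (MARS with DDIT3, VLDLR-AS1 with VLDLR, C12orf73 with HSP90B1, PNPLA8 with DNAJB9) cannot be told apart. Alternatives covered filters, scaling, pseudocount, variance trend, position, replicate block and each library left out.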

Additional observations from a re-analysis of the deposited data

Results flagged for a closer look

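In 5 of the 34 genes KO3 stood apart from the other 3 clones by a gap, relative to the range of the clones, above Dixon's 95% critical value of 0.829 for 4 samples. KO3 was at 10.15 log2 RPKM for HSP90B1, 10.08 for CALR, 8.66 for PDIA6, 6.48 for SDF2L1 and 5.73 for HYOU1, with ratios of 0.871, 0.933, 0.882, 0.958 and 0.830. All 5 are chaperones or foldases of the endoplasmic reticulum. Chance marks about 1 group in 20 in this way, and 5.68% of all tested genes had a clone that stood apart.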

How the results depend on the processing

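The 34 genes had no call in the pooled comparison under any alternative. Calls over all genes, 46, were 29 among genes of mean log2 RPKM 1 or more, 114 after quantile normalization, 75 with 1 RPKM added, 1 after position centring, and 0 with the replicate number as a block (replicate block), in which the members' median was -0.39. Deviations from the group means correlated at 0.06, 0.07 and -0.01 for the 3 shared numbers. Differences between clones enter these deviations, so the correlations cannot settle whether the numbers pair the samples. Leaving out 1 library gave 0 to 236 calls (0 without any 1 WT library, 236 without KO2, 87 without KO3, 1 without KO4), and a median of the members from -0.63 to -0.23; it was -0.0051 against WT1 alone. Members called lower moved from 5 to 3 in KO2 (quantile, no variance trend) or 2 (position-centred), and in KO3 from 1 to 2 (mean filter) or 0 (quantile, equal medians, no variance trend). Members called higher moved in KO1 from 1 to 0 (mean filter, position-centred) or 2 (equal medians), and in KO2 from 1 to 0 (position-centred).

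Leaving out a library gave, for members called lower, 8 to 20 in KO1, 1 to 28 in KO2, 0 to 14 in KO3 and 4 to 25 in KO4, and for members called higher 0 to 3, 0 to 1, 8 to 13 and 0 to 1. No shares over all tested genes are given beside these single-clone counts or those of the preceding paragraph. The late-stop against early-stop median ran from -0.14 to 0.47. The exact p of ATF4 ran from 0.0667 to 0.1, the smallest values those splits allow. The cause of these moves was not tested.

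Directions turned for pooled differences that had passed no test. ASNS was 0.0040, SLC7A11 0.65, SLC7A5 0.22 and WARS 0.36 against WT1 alone. WARS was 0.057 (quantile), 0.023 (equal medians) and 0.034 (block), HSPA5 -0.023 and VLDLR -0.23 (position-centred). With a library left out, SLC7A11 ran from -0.94 to 0.089, SLC7A5 from -0.30 to 0.089, HSPA5 from -0.17 to 0.49, VLDLR from -0.23 to 0.70 and WARS from -0.19 to 0.22. In KO3, DNAJB9 (0.60, adjusted p = 0.0393, limma) and EDEM1 (0.60, adjusted p = 0.0490) passed after position centring. Without read totals, the depth behind low genes such as CHAC1, PHGDH and VLDLR is unknown.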

Other observations

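The tested genes of the cytosolic heat shock list did not share the order of the WT libraries seen in the amino acid response genes. That list also holds HSPD1 and HSPE1, whose products work in mitochondria. In 0 of 11 tested genes was WT1 lowest and WT3 highest, and the median of WT3 minus WT1 was -0.23. HSPA8, the constitutive cytosolic HSP70, was at 9.35 and 9.40 log2 RPKM in WT1 and WT2 and at 8.45 in WT3. In KO3, where the endoplasmic reticulum chaperones were high, 0 of the 11 were called higher by limma and 1, BAG3, was called lower, where 14.2% of all tested genes were called higher and 19.9% lower. DNAJB1, an HSP70 cofactor, was at 4.94, 5.14 and 4.89 in WT and at 6.16, 5.48, 4.90 and 6.01 in KO1 to KO4, so that KO3 was the 1 clone within the WT range. DNAJA1, another such cofactor, was at 7.13, 7.15 and 6.56 in WT and at 7.89, 7.43, 7.01 and 7.66 in the clones, and again KO3 alone lay within the WT range.

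Of the genes of eIF2 and its exchange factor, EIF2S3, the gamma subunit on the X chromosome, was at 5.99, 6.08 and 6.12 in WT and at 4.90, 5.72, 5.13 and 5.67 in KO1 to KO4. All clones lay below all WT libraries, as in 10.1% of all tested genes (-0.71, adjusted p = 0.188, limma). No median of neighbouring genes was taken off these EIF2S3 values. SLC38A2, an amino acid transporter controlled by ATF4, had the smallest unadjusted p of the ATF4 targets outside the 34, at 6.52, 6.87 and 6.87 in WT and 5.66, 6.20, 5.62 and 6.49 in the clones (-0.76, adjusted p = 0.192). GDF15, a secreted stress hormone chosen here after its values were seen, spanned 2.60 to 5.29 in the clones and 2.85 to 4.92 in WT.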
